A study of Mus musculus with 23 samples.

Results

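The genes described here are the potassium channel genes of the mouse hippocampus other than those of the G protein-gated GIRK channels. They were taken from the deposited expression table as all genes whose symbol starts with Kcn, without the GIRK genes Kcnj3 and Kcnj9. Kcnj13, which is not a GIRK gene, and the Kcn genes inside the duplicated segment of chromosome 16 (Kcnj6, Kcnj15, Kcne1 and Kcne2) were also left out. Of 94 Kcn genes, 7 were left out in this way, and 70 of the remaining 87 had a mean of at least 0.5 RPKM (reads mapped to a gene, scaled to its length and to the mapped reads of the library) over the 23 libraries. These 70 genes were tested among 13971 genes of the same minimum level, out of 21785 in the table. Of the other 17, 16 lay below that level and Kcnk16 had no value. Kcnj5, the remaining GIRK subunit gene, was among the 16, with a mean of 0.14 RPKM. Just inside the level were Kcnrg at 0.55, Kcnh5 at 0.62 and Kcna5 at 0.73 RPKM, and just outside were Kcnmb1 at 0.42, Kcne4 at 0.41 and Kcne3 at 0.29 RPKM.

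The study measured messenger RNA of the whole hippocampus in Dp16 mice, a model of Down syndrome that carries a duplication of the part of mouse chromosome 16 related to human chromosome 21, and in Dp16 mice with knockout alleles meant to bring 1 or 2 of the duplicated genes back to the normal dose. The groups were Dp16;D-KO/K-KO (5 libraries, Dp16 with knockout of Dyrk1a and Kcnj6), Dp16/D-KO (6 libraries, Dp16 with knockout of Dyrk1a), Dp16 (7 libraries) and WT (5 libraries, without duplication or knockout). Each group was spread over 2 batches. Batch 1, labelled total RNA, came from C57BL/6 mice aged 2 to 3 months, and batch 2, labelled polyA RNA, from mice of a background over 90% C57/B6 whose age the labels do not give. Batch 1 held 2 Dp16;D-KO/K-KO, 3 Dp16/D-KO, 3 Dp16 and 2 WT libraries. The labels do not say whether each library came from 1 animal, so p-values measure the spread between these libraries.

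Potassium channels let potassium leave the cell, or in the case of inward rectifiers enter it more readily than leave it, and so set the resting potential, the shape of the action potential and the rate of firing. GIRK channels, which contain the protein of Kcnj6, open when inhibitory transmitters act on G protein-coupled receptors, and an additional copy of Kcnj6 is known to increase this inhibitory current in hippocampal neurons. The other families comprise voltage-gated Kv channels, the KCNQ channels of the M-current, channels opened by calcium or sodium, inward rectifiers, the leak channels with 2 pore domains and auxiliary subunits that modify them.

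Libraries held an estimated 15.35 to 17.6 M reads (median 17.2). The targeted genes did not follow the knockout labels. Kcnj6 averaged 25.6 ± 1.67 RPKM in Dp16;D-KO/K-KO, 26.045 ± 1.52 in Dp16/D-KO, 26.9 ± 3.48 in Dp16 and 18.3 ± 1.87 in WT libraries (SD, n = 5, 6, 7 and 5). Dyrk1a exceeded WT by 0.54, 0.51 and 0.52 on the log2 scale in the same 3 groups. The labels do not say which part of each gene the knockout removes, and a level over the whole gene does not measure an undeleted or nonfunctional transcript separately. Directions drawn below from knockout groups are therefore those of the libraries so labelled. WT F1 and WT M3 went against the sex letter of their names, with 12.65 and 0.01 RPKM of the Y-linked Ddx3y. WT M3 also went against its batch label. Of 1394 genes whose levels did not overlap between the batches in the other 22 libraries, only 123, or 8.82%, were nearer to the polyA batch of its label in WT M3. The same share for the label of each other library ran from 85.2% to 98.9%. Kcnip2, for instance, had 132.33 RPKM in WT M3, against 91.83 and 91.86 RPKM in the other WT libraries of the polyA batch and 128.84 and 129.98 RPKM in those of the total RNA batch. WT M3 was kept as labelled, and calls of the 70 genes against WT that change without it are named beside the result. For named genes outside the 70, results without it are not given. Ttr, the main secreted product of the choroid plexus, lay between 8.36 and 3760.37 RPKM among libraries.

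The 70 genes covered a range from below 1 RPKM to 222.86 RPKM. The highest was Kcnab2, the auxiliary beta subunit of Kv1 channels, and Kcnip2, a calcium-binding subunit of Kv4 channels, came next at 115.27 RPKM. Also among the 10 highest were Kcnab1 (44.38 RPKM), the large-conductance channel subunit Kcnmb4 (39.54 RPKM), the astrocytic inward rectifier Kcnj10 (38.94 RPKM), the leak channel Kcnk1 (38.54 RPKM), the gene Kcnc1 of Kv3 channels in fast-firing neurons (34.58 RPKM) and the Kv4 partner Kcnip3 (34.35 RPKM). Classes were assigned by gene symbol, with Kcnmb4 among the calcium- and sodium-activated channel genes. The 9 auxiliary genes held 36.2% of the summed RPKM of the 70, the 4 Kv3 genes 10.7% and the 4 KCNQ genes 10.5%. The 9 genes of the calcium- and sodium-activated class held 9.49%, the 8 inward rectifiers 6.88% and the 9 leak channel genes 6.08%. The 6 Kv1 genes held 5.23%, the 9 silent Kv subunits 5.20%, the 7 EAG, ERG and ELK genes 4.68%, the 3 Kv4 genes 3.42% and the 2 Kv2 genes 1.58%. Their summed RPKM was 1264.54 ± 19.7 in Dp16;D-KO/K-KO, 1276.44 ± 21.1 in Dp16/D-KO, 1265.85 ± 26.1 in Dp16 and 1311.46 ± 35.013 in WT libraries (SD, n = 5, 6, 7 and 5), and the 4 ranges overlapped.

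**Figure D1:**
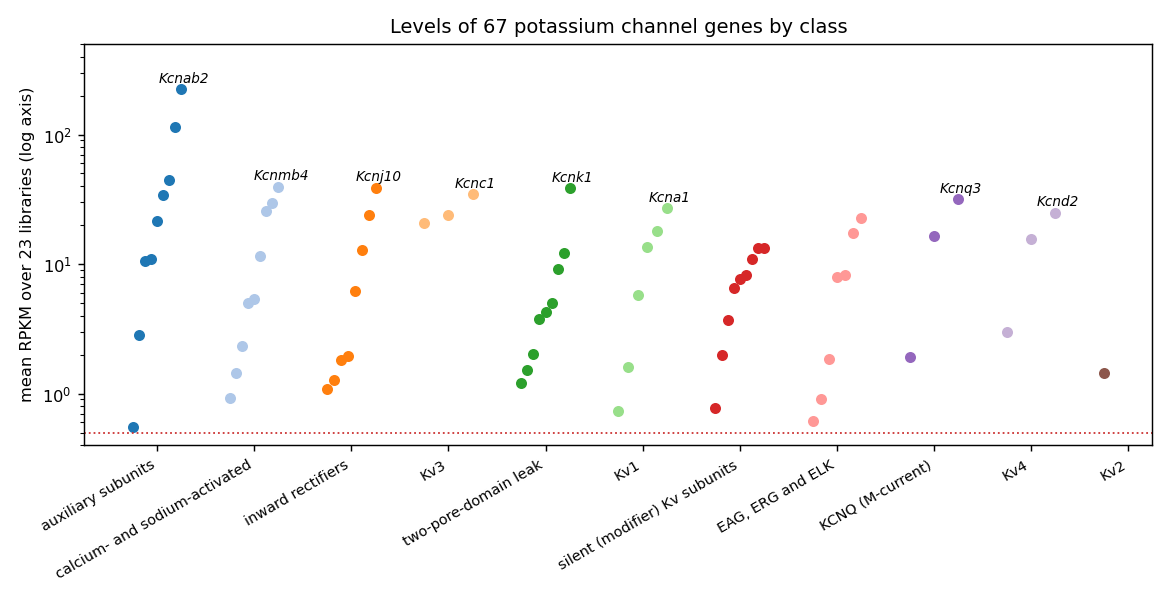
Mean RPKM over the 23 libraries of each of 67 potassium channel genes, on a log axis, by class, with the highest plotted gene of 8 classes named and the level threshold of 0.5 RPKM dotted. Kcnab2 at 222.86 RPKM stands above all others, and most classes span more than a factor of 10 between their lowest and highest genes.

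The comparison of Dp16 with WT asks whether other potassium channel genes differ where the GIRK gene Kcnj6 is present in an additional copy. None of the 70 passed the threshold. limma called 0 of them in Dp16 against WT at an adjusted p under 0.05, while it called 202 genes, or 1.45%, of all tested. At an unadjusted p under 0.05, 9 of the 70 passed, against 13.8% of all genes tested. Of the 9, 3 were higher and 6 lower in Dp16, against 5.34% and 8.46% of all genes in those directions. The median log2 change was -0.01 over the 70 genes and -0.01 over all genes. The interval of 95% lay within a change of 1.5-fold in either direction for 67 of the 70. The 3 with wider intervals were Kcnrg, Kcnh5 and Kcnh7, all of low level. In no class did a gene pass the adjusted threshold.

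Kcnip1, a calcium-binding Kv4 subunit that interneurons express, came nearest to the threshold. It had a lowest value of 9.46, a median of 11.8 and a highest of 14.07 RPKM in Dp16, against 9.58, 9.51, 9.59, 10.37 and 10.6 RPKM in WT. Of the 7 Dp16 libraries, 6 lay above every WT library, and Dp16 F3, at 9.46 RPKM, lay below them all. The log2 change was 0.24 (SE 0.06), with a limma adjusted p of 0.0711. Without Dp16 F3 it passed the threshold, at an adjusted p of 0.0215, and so it did after rescaling of the libraries. With the mean of 7 dentate granule neuron markers as a covariate, chosen after seeing the data, its log2 change was 0.16 with an adjusted p of 0.538. Kcnip1 lies on chr11:33629339-33993193 (mm10). The 9 interneuron markers had a median log2 change of 0.09 in the same comparison, all 9 positive and 1 called higher, and their summed RPKM was 570.69 to 827.6 in Dp16, against 578.09 to 766.14 in WT. The part of this in the value of Kcnip1 was not tested. In bulk tissue, fewer cells of a type and less RNA per cell cannot be told apart.

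Kcnk4, the gene of the mechanosensitive leak channel TRAAK, was the second nearest. It had a lowest value of 4.19, a median of 4.99 and a highest of 5.32 RPKM in Dp16, against 6.21, 6.68, 4.92, 5.59 and 6.11 RPKM in WT. Only WT M2, at 4.92 RPKM, lay within the range of the Dp16 libraries. The log2 change was -0.30 (SE 0.09), with an adjusted p of 0.121, and 0.0346 without WT M2. Kcnk4 lies on chr19:6921843-6934772, and 13.1% of its exon bases overlap Catsperz on the same strand, so reads there can belong to either gene. Kcnrg, whose protein holds back Kv channel assembly, had a log2 change of -0.58 (SE 0.21, adjusted p 0.192) at levels below 1 RPKM. In the total RNA batch it averaged 0.547 RPKM in Dp16 and 0.605 in WT (n = 3 and 2). In the polyA batch, WT M3 included, the means were 0.4275 and 0.827 RPKM (n = 4 and 3). Its log2 change ran from -0.81 to -0.13 over the settings. Kcnd3, a Kv4 subunit, had 0.13 (SE 0.05, adjusted p 0.223), with means of 16.3 ± 0.712 RPKM in Dp16 and 14.9 ± 0.914 in WT (SD, n = 7 and 5).

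**Figure D2:**
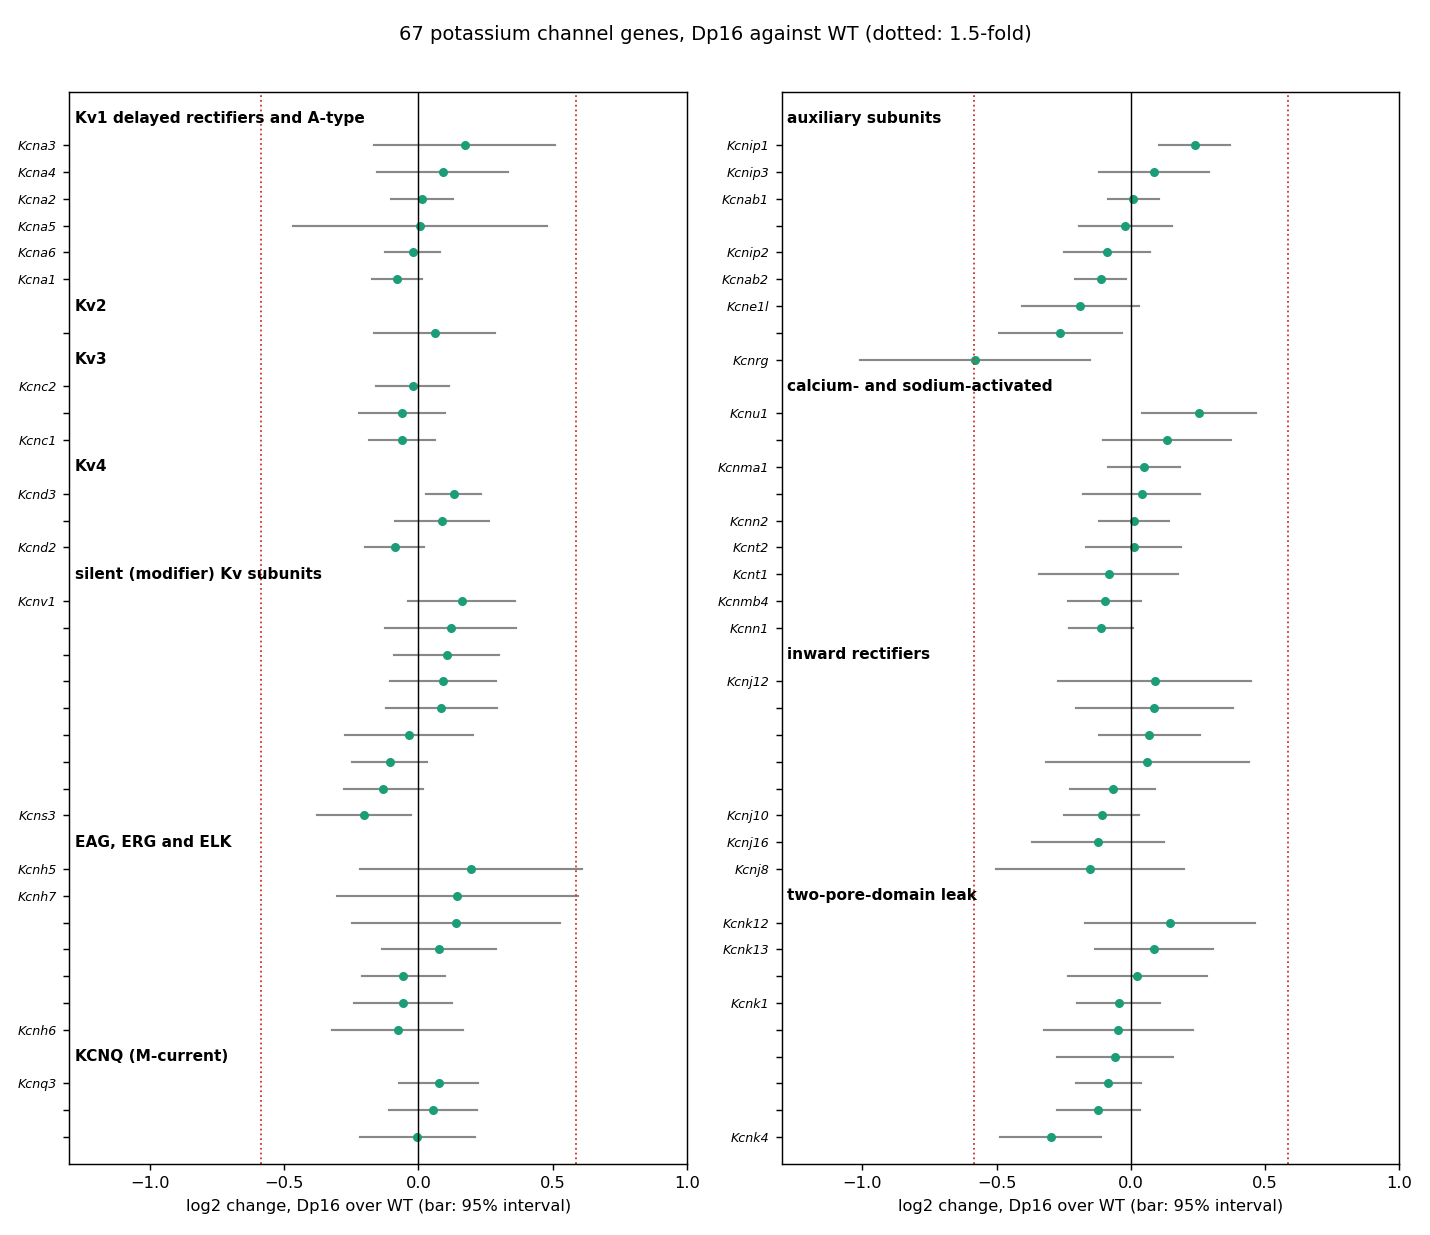
Log2 change of each of 67 potassium channel genes in Dp16 over WT with its interval of 95%, by class, with the genes described in the text named and the 1.5-fold change in either direction dotted. The points lie between -0.58 (Kcnrg) and 0.25 (Kcnu1), and 64 of the 67 intervals lie inside the dotted lines.

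The one gene called in any comparison of genotypes was a Kv1 gene, and it was lower in the libraries with knockout labels. Kv1 genes encode low-threshold channels of axons and their initial segments, which hold back firing and set the release of transmitter. In Dp16/D-KO against WT, limma called 1 of the 70, or 1.43%, namely Kcna1, which was lower. Of all genes tested, 1.28% were called in either direction, a share near that of the 70, and 0.429% lower. At an unadjusted p under 0.05, 12 of the 70 passed, against 13.7% of all genes. Of the 12, 10 were lower and 2 higher, or 14.3% and 2.86% of the 70, against 7.36% and 6.39% of all genes. This difference in shares was not tested. Kcna1 encodes the Kv1 subunit whose loss causes seizures in mice and episodic ataxia in humans, and it lies on chr6:126636463-126645801 (mm10). Its values were 25.06, 23.74, 25.99, 26.18 and 26.84 RPKM in Dp16;D-KO/K-KO, and ran from 23.21 to 27.52 with a median of 23.9 RPKM in Dp16/D-KO. They ran from 26.44 to 28.97 with a median of 28.23 RPKM in Dp16, and were 31.24, 27.15, 28.86, 29.94 and 30.43 RPKM in WT. Of the 6 Dp16/D-KO libraries, 4 lay below all WT and Dp16 libraries, and the other 2, at 27.52 and 27.16 RPKM, lay just above the lowest WT value. The log2 change was -0.26 (SE 0.05, adjusted p 0.00349), a fold of 0.837.

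Kcna1 was also the only one of the 70 called for any difference among the 4 genotypes in the F-test of the same model, at an adjusted p of 0.0087. This is 1.43% of the 70, against 1.59% of all genes tested. The authors' deposited table gives a log2 fold change of -0.24 with an adjusted p of 0.000282 for Kcna1 in Dp16/D-KO against WT. Within batch 1 alone the log2 change was -0.20 (adjusted p 0.382) and within batch 2 alone, WT M3 included, -0.27 (adjusted p 0.121), each with fewer libraries. Without WT M3 it was -0.24 (adjusted p 0.00807), with Kcna6 and Kcnj10 called as well and 387 of all genes tested called in place of 179. Kcna1 kept its call without any 1 of the 11 libraries of these 2 groups, at adjusted p from 0.00122 to 0.0262. With only the 2 groups in the fit, its adjusted p was 0.105.

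Kcna6 and Kcna2, further Kv1 subunits, had the next smallest p in Dp16/D-KO against WT and did not pass. Kcna6 ran from 12.1 to 12.9 with a median of 12.6 RPKM in Dp16/D-KO, against 14.78, 15.51, 13.99, 13.59 and 13.56 RPKM in WT. No Dp16/D-KO library reached the lowest WT value, which 60 of all genes tested, or 0.429%, also showed in that direction, and Kcna6 was the only such gene of the 70. Its log2 change was -0.19 (SE 0.05, adjusted p 0.0658), and without WT M3 the adjusted p was 0.0498. Of its exon bases, 39.6% overlap the antisense gene Gm26673, and the strand of counting is not given, so reads there cannot be assigned. Kcna2 ran from 15.66 to 18.17 with a median of 17.005 RPKM in Dp16/D-KO, against 19.36, 17.09, 18.97, 18.61 and 20.67 RPKM in WT, so the groups overlapped. Its log2 change was -0.17 (SE 0.06, adjusted p 0.173). Of the 6 Kv1 genes, 5 had a negative log2 change in this comparison, with a median of -0.17, beside -0.01 over all genes tested. The values were -0.18 for Kcna4 (adjusted p 0.549), -0.05 for Kcna3 (adjusted p 0.935) and 0.14 for Kcna5 (adjusted p 0.850), the last with levels below 2 RPKM. The summed RPKM of the 6 genes ran from 62.86 to 65.46 in Dp16;D-KO/K-KO, from 57.42 to 66.76 in Dp16/D-KO, from 66.06 to 76.07 in Dp16 and from 67.81 to 73.18 in WT libraries. Both groups with knockout labels thus lay wholly below WT in this sum, which was formed after the gene values were seen and was not tested.

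Kcna1 and Kcna6 are neighbours on chromosome 6, with 59.62 kb between them and Kcna5 100.91 kb on the other side of Kcna1, while Kcna2 lies 52.72 kb from Kcna3 on chromosome 3. The windows around a start of Kcna2 and of Kcna6 are shown because these genes had the next smallest p after Kcna1 and lay in its direction. Kcna3 and Kcna4 also lay in that direction and are not shown. The sequence source used held no window of Kcna1, so no sequence of the called gene is shown. Both windows are RefSeq sequences of GRCm38.p6, 300 bases from 250 before to 50 after the start, read in the direction of the gene. The start used for Kcna2 lies 10.7 kb inside the gene as the deposited table delimits it, so the window shows 1 start and not the outer end of the gene, and that used for Kcna6 lies 241 bases inside. Capitals mark the GC box (GGGCGG or CCGCCC) and the core of the cAMP response element (TGACG or CGTCA).
Kcna2 (chr3:107101317-107101616, plus strand): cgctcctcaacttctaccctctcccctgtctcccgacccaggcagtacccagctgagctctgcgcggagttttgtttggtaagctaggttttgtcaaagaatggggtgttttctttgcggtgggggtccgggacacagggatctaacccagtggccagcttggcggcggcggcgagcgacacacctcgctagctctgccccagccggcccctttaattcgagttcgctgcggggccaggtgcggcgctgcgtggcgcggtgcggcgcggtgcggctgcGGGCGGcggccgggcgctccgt
Kcna6 (chr6:126740625-126740924, minus strand): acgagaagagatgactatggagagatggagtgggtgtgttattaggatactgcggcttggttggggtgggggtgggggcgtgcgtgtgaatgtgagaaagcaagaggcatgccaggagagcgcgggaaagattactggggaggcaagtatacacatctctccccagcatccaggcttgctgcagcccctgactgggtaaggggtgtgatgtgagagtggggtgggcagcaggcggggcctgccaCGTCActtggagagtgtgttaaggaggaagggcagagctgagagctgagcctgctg
The Kcna2 window holds 1 GC box and no TGACG, and the Kcna6 window the reverse, 1 CGTCA and no GC box. Neither holds the full element TGACGTCA or a TATAAA box. Over all 32851 such windows, 35.7% hold a GC box and 20.8% TGACG on either strand, and over the 70 windows of the 48 potassium channel genes that have one the shares are 50.0% and 17.1%. The Kcna2 window has 66.7% G and C with 31 CpG, and the Kcna6 window 58.3% with 8 CpG. A match describes the letters and not a bound site.

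**Figure D3:**
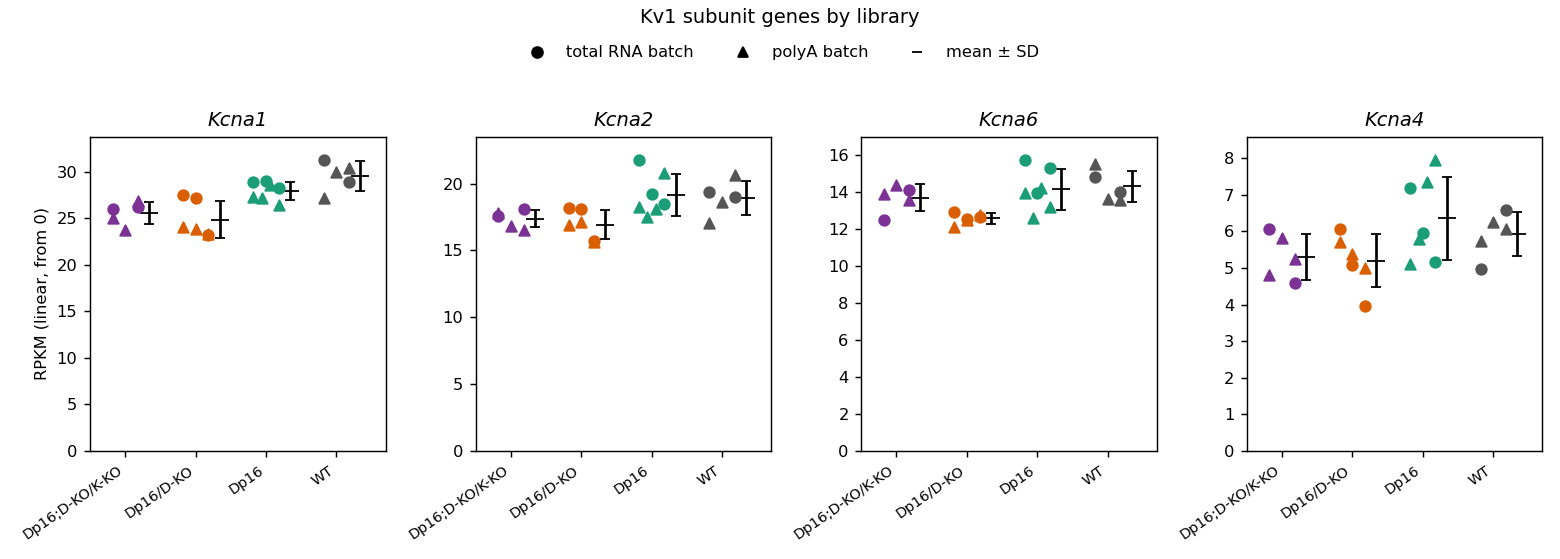
RPKM of Kcna1, Kcna2, Kcna6 and Kcna4 in each library, by group (circles, total RNA batch, triangles, polyA batch), with the mean and SD beside each group, on linear axes from 0. For Kcna1, all 5 Dp16;D-KO/K-KO libraries and 4 of the 6 Dp16/D-KO libraries lie below every WT library.

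Markers of oligodendrocytes and of dentate granule neurons had mostly negative log2 changes where Kcna1 was lower, as had those of some other cell types. Also negative in Dp16/D-KO against WT were all 4 CA3 pyramidal neuron markers (median -0.14) and all 7 choroid plexus markers (median -1.51), none called. Of the 5 ependymal markers 4 were negative. By contrast, 4 of the 5 CA1 pyramidal neuron markers and 8 of the 9 interneuron markers were positive. In Dp16/D-KO against WT, the 10 oligodendrocyte markers had a median log2 change of -0.46, all 10 negative and 1 called lower, beside -0.01 over all genes tested. Against Dp16 the median was -0.45, all 10 negative and none called. Their summed RPKM ran from 2423.39 to 3285.28 in Dp16;D-KO/K-KO, from 1305.47 to 2727.34 in Dp16/D-KO, from 2268.19 to 3327.16 in Dp16 and from 2438.93 to 3376.8 in WT libraries, so the Dp16/D-KO libraries reached lower than the other groups. With the mean of the 10 markers as a covariate, chosen after seeing the data, the log2 change of Kcna1 in Dp16/D-KO against WT was -0.25 with an adjusted p of 0.0802. The call was thus lost, and the log2 change without the covariate was -0.26. The part of oligodendrocytes in the value of Kcna1 was not tested. In Dp16;D-KO/K-KO against WT, where Kcna1 was also lower, the median of the 10 markers was -0.04 with 7 negative and none called.

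The 7 dentate granule neuron markers had negative log2 changes beside Kcna1 in both groups with knockout labels. Their median log2 change was -0.30 in Dp16;D-KO/K-KO against WT, all 7 negative and none called, with 5 at an unadjusted p under 0.05. In Dp16/D-KO against WT it was -0.26, all 7 negative, 1 called lower and 5 at an unadjusted p under 0.05. In Dp16 against WT, where Kcna1 was not called, it was -0.29, with 6 negative, 1 called lower and 5 at an unadjusted p under 0.05. Their summed RPKM ran from 60.94 to 76.79 in Dp16;D-KO/K-KO, from 60.53 to 92.13 in Dp16/D-KO, from 63.25 to 80.05 in Dp16 and from 77.46 to 93.49 in WT libraries, so all Dp16;D-KO/K-KO libraries lay below all WT libraries and the other groups overlapped WT. With the mean of these markers as a covariate, the log2 change of Kcna1 was -0.24 (adjusted p 0.175) in Dp16;D-KO/K-KO against WT, where the call was lost, and -0.28 (adjusted p 0.0188) in Dp16/D-KO against WT. Among partners of Kv1 channels, the myelinated-axon protein gene Cntn2 had -0.26 (SE 0.07, adjusted p 0.0751) in Dp16/D-KO against WT, and Cntnap2 had -0.01 (SE 0.05, adjusted p 0.949). In Dp16;D-KO/K-KO against WT, Cntn2 went the other way, with 0.07 (SE 0.07, adjusted p 0.823), and Cntnap2 had 0.05 (SE 0.05, adjusted p 0.833).

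**Figure D4:**
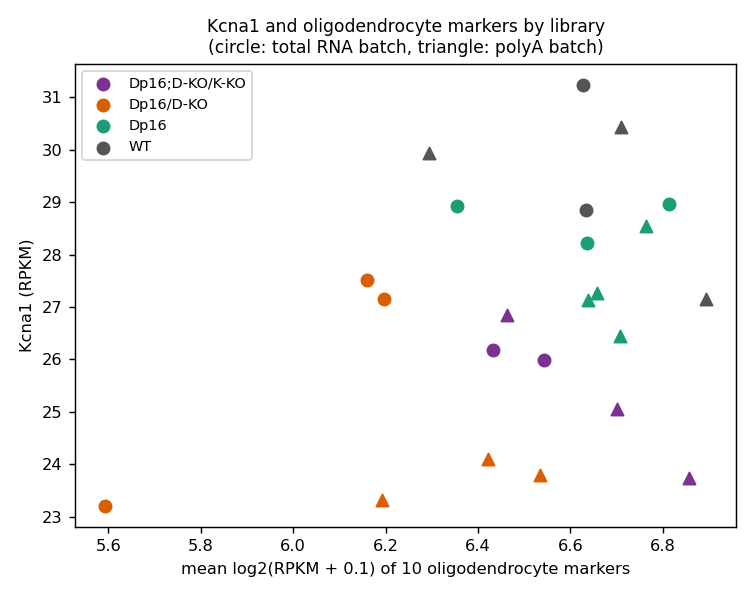
Kcna1 (RPKM) against the mean log2(RPKM + 0.1) of 10 oligodendrocyte markers, 1 point per library, by group (circles, total RNA batch, triangles, polyA batch). The Dp16/D-KO libraries lie left of most others, with 4 of the 6 below every Dp16 and WT library, while the Dp16;D-KO/K-KO libraries, from 23.74 to 26.84 RPKM of Kcna1, lie within the marker range of Dp16 and WT.

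In Dp16;D-KO/K-KO against WT, limma again called 1 of the 70, or 1.43%, namely Kcna1, lower, against 0.752% of all genes tested in either direction and 0.15% lower. At an unadjusted p under 0.05, 7 of the 70 passed, against 9.83% of all genes. Of the 7, 5 were lower and 2 higher, or 7.14% and 2.86% of the 70, against 4.54% and 5.3% of all genes. None of the 5 Kcna1 values in Dp16;D-KO/K-KO reached the lowest WT value of 27.15 RPKM, which 0.408% of all genes tested also showed. The log2 change was -0.21 (SE 0.05, adjusted p 0.0476), a fold of 0.867. The authors' deposited table gives -0.21 with an adjusted p of 0.0108. This call rests on a narrow margin. It was made in 7 of 26 other settings, and was lost without any one of Dp16;D-KO/K-KO F1, F2, M1 or M2 or of WT F1, M3 or M4, with adjusted p up to 0.167. It was also lost with the replicate block, at an adjusted p of 0.136, and the size ran from -0.24 to -0.16 over all 26. Kcnk4 had 4.59, 4.1, 5.35, 4.29 and 4.45 RPKM in Dp16;D-KO/K-KO, where 4 of the 5 lay below every WT value and M1, at 5.35 RPKM, lay above WT M2 alone, and a log2 change of -0.36 (SE 0.10, adjusted p 0.111). Without WT M2 its adjusted p was 0.0300. Kcns3, a silent subunit that modifies Kv2 channels, had -0.23 (adjusted p 0.387), and Kcnt2, a sodium-activated channel gene, had -0.20 (adjusted p 0.482). In the total RNA batch Kcnt2 averaged 4.015 RPKM in Dp16;D-KO/K-KO against 5.74 in WT (n = 2 and 2). In the polyA batch the means were 5.07 and 5.067 RPKM (n = 3 and 3). The log2 change of Kcnt2 ran from -0.53 to 0.01 over the settings.

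No member passed in the comparisons among the 3 groups with the duplication. In Dp16/D-KO against Dp16, 0 of the 70 passed, against 0.143% of all genes tested, and 11 passed an unadjusted p under 0.05, against 15.2%. Of the 11, 9 were lower and 2 higher, or 12.9% and 2.86% of the 70, against 6.61% and 8.56% of all genes. This difference in shares was not tested. The 4 smallest p were those of Kcna1 (log2 change -0.18, SE 0.04, adjusted p 0.0773), Kcna6 (-0.17, SE 0.05, adjusted p 0.113), Kcna2 (-0.18, SE 0.05, adjusted p 0.136) and Kcnip1 (-0.20, SE 0.06, adjusted p 0.141). The authors' deposited table gives an adjusted p of 0.0391 for Kcna1 there. Of the 6 Kv1 genes 5 were negative, with a median of -0.18, Kcna4 the largest in size at -0.27 (adjusted p 0.261). These comparisons share the Dp16/D-KO libraries with those against WT, so the 2 sets of values are not independent.

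In Dp16;D-KO/K-KO against Dp16, 0 of the 70 passed, against 0.0358% of all genes tested, and 10 passed an unadjusted p under 0.05, against 11.3%. Of the 10, 7 were lower and 3 higher, or 10% and 4.29% of the 70, against 4.6% and 6.66% of all genes. This difference in shares was not tested. Kcne1l, also named Kcne5, a small subunit that can hold back KCNQ and other channels, had the smallest p. It had 3.88, 3.6, 3.48, 3.09 and 2.65 RPKM in Dp16;D-KO/K-KO, against a lowest value of 1.93, a median of 2.49 and a highest of 2.95 RPKM in Dp16. All Dp16;D-KO/K-KO libraries except M3 lay above every Dp16 library. The log2 change was 0.43 (SE 0.11, adjusted p 0.129), and no setting gave a call. Kcnt1, the gene of the other sodium-activated channel, had 9.02, 12.08, 18.87, 20.01 and 9.92 RPKM in Dp16;D-KO/K-KO, against a lowest value of 9.05, a median of 9.58 and a highest of 12.71 RPKM in Dp16. The 2 high values were those of M1 and M2, the only Dp16;D-KO/K-KO libraries of the total RNA batch, and both lay above every Dp16 library. Of the 3 polyA libraries, F2 and M3 lay in the range of Dp16 and F1 just below it, while the 4 polyA libraries of Dp16 alone ran from 9.05 to 9.58 RPKM. Its log2 change was 0.37 (SE 0.13, adjusted p 0.283), and ran from 0.13 to 0.78 over the settings.

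In Dp16;D-KO/K-KO against Dp16/D-KO, limma called no gene at all, 0% of those tested, and 6 of the 70 passed an unadjusted p under 0.05, against 9.02% of all genes. Of the 6, 1 was lower and 5 higher, or 1.43% and 7.14% of the 70, against 2.88% and 6.13% of all genes. Kcnab1, a beta subunit that speeds the inactivation of Kv1 channels, had the smallest p. It had 41, 41.22, 41.9, 42.35 and 46.41 RPKM in Dp16;D-KO/K-KO, against a lowest value of 44.52 and a highest of 50.16 RPKM in Dp16/D-KO. Only Dp16;D-KO/K-KO M3 lay within the range of Dp16/D-KO. The log2 change was -0.14 (SE 0.05, adjusted p 0.345). Kcnk13 had 0.28 (adjusted p 0.410), Kcna6 had 0.13 (adjusted p 0.416) and Kcnt1 had 0.31 (adjusted p 0.470).

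**Figure D5:**
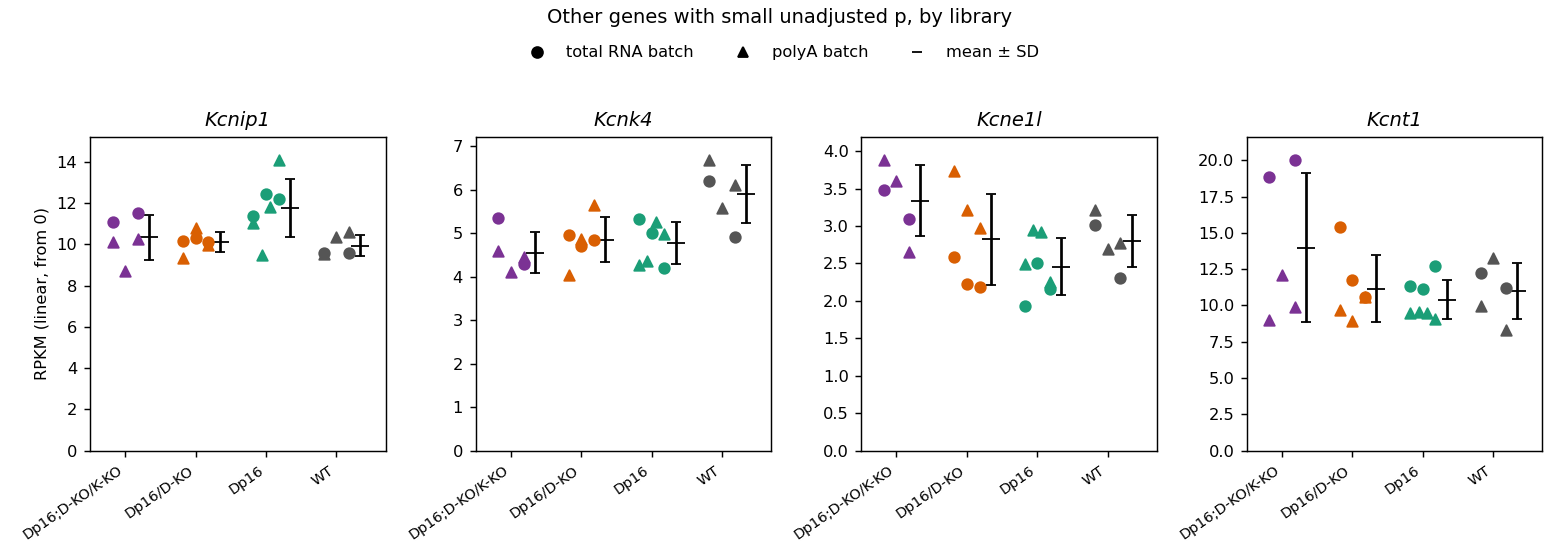
RPKM of Kcnip1, Kcnk4, Kcne1l and Kcnt1 in each library, by group (circles, total RNA batch, triangles, polyA batch), with the mean and SD beside each group, on linear axes from 0. For Kcnt1, 2 Dp16;D-KO/K-KO libraries of the total RNA batch, at 18.87 and 20.01 RPKM, stand apart from the other 3.

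Further genes of well-known potassium currents of hippocampal neurons and astrocytes are given with their values, Kcna1 and Kcna2 of the same list being described above. In Dp16 against WT the log2 change was 0.05 (SE 0.06) for Kcnma1, the pore of the large-conductance calcium-activated channel. It was -0.09 (SE 0.05) for Kcnd2, the Kv4 subunit of the dendritic A-type current, and 0.01 (SE 0.06) for Kcnn2, a small-conductance channel of the afterhyperpolarization. Kcnq3, a subunit of the M-current channel that restrains repetitive firing, had 0.08 (SE 0.07). The Kv3 genes Kcnc1 and Kcnc2 had -0.06 (SE 0.06) and -0.02 (SE 0.07), and the leak channel Kcnk1 had -0.05 (SE 0.07). Of these 7 genes none had an adjusted p below 0.473 in this comparison. The remaining genes are given by class. In Dp16 against WT, the log2 changes of the 9 silent Kv subunit genes, whose products form channels only together with Kv2 subunits, ran from -0.20 (Kcns3) to 0.16 (Kcnv1). Those of the 7 EAG, ERG and ELK genes, relatives of the cardiac repolarizing channel, ran from -0.08 (Kcnh6) to 0.20 (Kcnh5). Those of the 9 leak channel genes ran from -0.30 (Kcnk4) to 0.15 (Kcnk12). Those of the 9 genes placed by symbol with the calcium- and sodium-activated channels ran from -0.11 (Kcnn1) to 0.25 (Kcnu1). This placement does not state what opens each channel, Kcnu1 included. Those of the 8 inward rectifiers ran from -0.15 (Kcnj8) to 0.09 (Kcnj12), with 4 positive and 4 negative.

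The astrocytic inward rectifier Kcnj10 had -0.11 (SE 0.07, adjusted p 0.495) in Dp16 against WT and -0.19 (SE 0.07, adjusted p 0.211) in Dp16/D-KO against WT, and its partner Kcnj16 had -0.12 (SE 0.12) and -0.19 (SE 0.12). Kcnj10 passed in Dp16/D-KO against WT only without WT M3. The 7 astrocyte markers had summed RPKM of 933 to 974 in Dp16/D-KO, against 936.13 to 1012.86 in WT libraries.

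Of 44 genes whose products bind, anchor or work beside potassium channels, 42 were tested. The only call was Hcn3, a subunit of the hyperpolarization-activated cation channels that open at rest, which was higher in Dp16/D-KO than in WT with a log2 change of 0.28 (SE 0.06, adjusted p 0.0305), against 1.28% of all genes tested that were called there. The median over the 42 was -0.01 in Dp16 against WT, with 7 higher and 4 lower at an unadjusted p under 0.05, against 5.34% and 8.46% of all genes in those directions. The GIRK subunit genes outside the duplication, Kcnj3 and Kcnj9, had log2 changes of 0.05 (adjusted p 0.755) and -0.12 (adjusted p 0.503) in Dp16 against WT, and -0.18 (adjusted p 0.270) and 0.01 (adjusted p 0.984) in Dp16;D-KO/K-KO against Dp16.

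Many of the 70 genes differed between the batches, as did a similar share of all genes tested. Between the polyA batch and the total RNA batch, a comparison added after seeing the data, 31 of the 70, or 44.3%, were called, against 49.4% of all genes tested. Of the 31, 18 were higher and 13 lower in the polyA batch, against 16% and 33.4% of all genes. Kcnh7, named after its values were seen, was higher by 1.03 (SE 0.16, adjusted p 2.77e-05) on the log2 scale, and Kcnc2 had -0.31 (SE 0.05, adjusted p 3.49e-05). Of the 70, 27 were called without WT F1 and WT M3, against 7223 of the 13971 genes tested. Batch as labelled was a term of the main fits, and its preparation and strain labels change together, so they cannot be told apart. The effect of Dp16 was not called different by batch for any of the 70 (limma called 0% of all genes tested), and 5 of the 70 passed an unadjusted p under 0.05, against 5.99% of all genes. It was likewise not called different by sex letter for any of the 70, with 0% of all genes called and 2 of the 70 at an unadjusted p under 0.05, against 5.71%. This compares letters and cannot speak to sex, because WT F1 and WT M3 went against their letters by Ddx3y. Without them WT F2 would be the only WT library lettered F. The smallest p by letter was that of Kcnmb4, whose log2 effect of Dp16 differed by -0.35 between F and M libraries (F minus M, SE 0.11, adjusted p 0.843).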

How the data were processed

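Messenger RNA was measured by sequencing in 23 hippocampus libraries. The deposited table gives 1 RPKM value per gene and library, computed by the authors. The aligner was HISAT and the genome build mm10, per the submitters' processing notes. No source used here gives the counting, its strand setting or the gene lengths. The same table holds the authors' log2 fold changes and adjusted p-values, with an unstated test. The spacing of low RPKM values gave an estimate of depth from 262 single-exon genes under 2000 bases. Between 58.7% and 78.7% of values then lay within 0.15 read of a whole number, beside 30% by chance at a fixed depth, so counts were not recovered.

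A pseudocount of 0.1 was added to RPKM before taking log2. Genes were tested where their mean RPKM reached 0.5. limma 3.58.1 in R 4.3.3 was fitted to all 4 groups, with batch (from the molecule label) and sex letter as covariates and a trend in the spread. Tests were two-sided and adjusted by Benjamini-Hochberg over all 13971 genes, with a call at an adjusted p under 0.05. Log2 changes are on the log2(RPKM + 0.1) scale and understate changes of low genes. The fit was tested on simulated data. Named were genes called, the 4 smallest p of each comparison of genotypes, the 10 highest levels, those beside the level threshold and a list of well-known channels; others are named to complete a class. Results of 3 genes that this rule names are not reported here. The genes, lists and tests were chosen with earlier results of these data known. Libraries of the same replicate label deviated together with a mean correlation of 0.05 over 26 pairs, 14 of them over 0.1. Over 26 pairs of other labels the mean was -0.015, with 8 over 0.1. The correlations ran from -0.31 to 0.45 for the same label and from -0.37 to 0.27 for other labels. Replicate numbers were not taken to pair samples in the main fits, and a replicate block was run as an alternative.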

Additional observations from a re-analysis of the deposited data

Results flagged for a closer look

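Among 112 groups of values (28 named genes in 4 groups), 3 held 1 library far from the others of its group by Dixon's criterion, and chance flags about 1 in 20 groups. Kcnrg was 0.86 RPKM in Dp16 F1, with the other Dp16 libraries between 0.28 and 0.53 RPKM. Kcnab1 was 46.41 RPKM in Dp16;D-KO/K-KO M3, with the others of that group between 41 and 42.35 RPKM. Kcnn2 was 25.42 RPKM in Dp16 M2, with the other Dp16 libraries between 28.81 and 31.25 RPKM. These 3 values belong to 3 different libraries, and none of the 3 genes was called in any comparison of genotypes.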

How the results depend on the processing

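Libraries were left out only from the 2 groups compared. In Dp16 against WT, 0 of the 70 genes were called in all settings except rescaling of the libraries, which called 1 (Kcnip1), and leaving out 1 library, which called 0 to 1. Of all genes tested, rescaling called 187 and leaving out 1 library 116 to 274. In Dp16/D-KO against WT, 1 was called in most settings, 0 with the 2 groups alone in the fit, in batch 1 or batch 2 alone and with the oligodendrocyte covariate, and 1 to 3 with 1 library left out (3 without WT M3, Kcna6 and Kcnj10 besides Kcna1). With the dentate granule neuron covariate 2 were called there, Kcna1 and Kcng2, against 203 of all genes tested. Leaving out 1 library called 108 to 387 of all genes tested in that comparison. In Dp16;D-KO/K-KO against WT, 0 were called with no filter on low values, no batch covariate, rescaled libraries, no variance trend, the 2 groups alone, either batch alone, without WT F1 and M3, and with the oligodendrocyte, choroid plexus or dentate granule neuron covariate, and 0 to 2 with 1 library left out. Of all genes tested, 74 to 116 were called there with 1 library left out. With the replicate number as a block, 0 of the 70 were called in Dp16;D-KO/K-KO against WT and 1 in Dp16/D-KO against WT, and the block changed no other count of the 70. The other comparisons of genotypes called 0 under every alternative run. The causes were not tested, though fits of 1 batch or of 2 groups hold fewer libraries. The covariates were chosen after seeing the data. Levels near 0.5 RPKM rest on few reads, which limits Kcnrg, Kcnh5 and Kcna5.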
